A study of Mus musculus with 8 samples.

Results

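Mouse Sertoli cells of the line TTE3 were compared after 12 h and after 3 h in bisphenol A (BPA), a plastics monomer that binds estrogen receptors weakly. Both groups had received 0.2 mM BPA, so the comparison sets a late against an early stage of the same exposure. The groups compared hold 4 of the 8 arrays of the series, 2 at each time. To the fit of this comparison the arrays taken at 0 h and 6 h gave only part of its estimate of the spread. The choice of probe sets and the signal limit for testing used all 8 arrays, and the 6 h arrays also served for the steps within the interval. The comparison covered 12393 genes, each read from the probe set with the highest mean signal, of which 8675 were bright enough to be tested. TTE3 cells came from the testis of mice with a transgene for the large T-antigen of simian virus 40 in a temperature-sensitive form, and all groups share it. The line is a single immortalised line, so its arrays stand for that line and not for Sertoli cells of different animals. Total RNA was hybridised to an Affymetrix Mouse Expression Array 430A, in which the brightness of a set of short probes stands for the level of a transcript. Whether the 2 numbered arrays of a time are separate cultures is not stated in the labels, and every p-value here reflects the spread between such arrays, which may be technical. No untreated arrays were taken at 3 h or 12 h, so hours in BPA and hours in culture cannot be told apart.

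Sertoli cells line the seminiferous tubule, feed the germ cells and seal them off behind tight junctions. When a cell is short of amino acids, or unfolded protein piles up in its endoplasmic reticulum (ER), a kinase phosphorylates the initiation factor eIF2 alpha, general translation slows and the transcription factor ATF4 turns on amino acid synthesis, transport and tRNA charging. Growth factor, adhesion and stretch signals act through other transcription factors, among them the immediate early genes, the SMADs of TGF-beta and BMP signalling and the YAP and TEAD pair, which drive genes of matrix and growth.

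From 3 h to 12 h, 11 of 18 tested enzymes of amino acid and one-carbon synthesis rose and 1 fell, and 14 of 23 cytosolic aminoacyl-tRNA synthetases rose and 1 fell. In the same interval 19 of 33 collagens and matrix proteins fell and 1 rose, and 13 of 27 immediate early genes fell and 3 rose. A gene was called when its adjusted p was under 0.05 (limma with Benjamini-Hochberg adjustment over all 8675 genes), and "rose" and "fell" are used only of called genes. By that rule 826 genes, 9.52% of those tested, were higher at 12 h and 1075, 12.4%, were lower, 21.9% in all. Changes of at least 2-fold were less even, with 76 risen genes (0.876%) and 278 fallen genes (3.2%). Both 12 h arrays lay above both 3 h arrays in 29.4% of tested genes and below both in 31.8%. Arrays that did not overlap were thus common, called or not. Without the first or the second 3 h array, or without the first 12 h array, the total dropped from 1901 to 1008, 1083 and 1106. The median difference over all tested genes was -0.01 on the log2 scale.

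The split between rises and falls depended on the scaling. The deposited signals share a trimmed mean of 500.2 but not a median, which was 165.6 and 170.0 at 3 h and 152.5 and 155.4 at 12 h. Scaling all arrays to the same median moved the median difference to 0.11 and gave 1410 higher and 766 lower genes. Arrays of the same time correlated at 0.974 to 0.984 over the tested genes and the 3 h with the 12 h arrays at 0.948 to 0.955. The 3' to 5' signal ratio of Gapdh, a measure of RNA integrity, was 0.713 and 0.775 at 3 h and 0.787 and 0.82 at 12 h. The same ratio of actin overlapped between the times, at 1.137 and 1.164 at 3 h and 1.111 and 1.185 at 12 h. The part of RNA integrity in the differences was not tested.

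**Figure D1:**
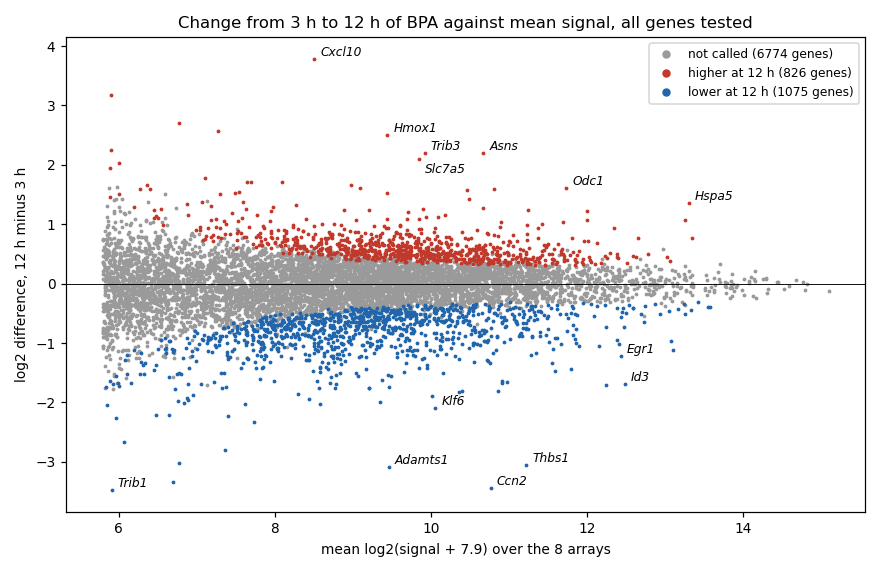
Each point is a tested gene, with its mean log2(signal + 7.9) over the 8 arrays on the horizontal axis and its log2 difference, 12 h minus 3 h, on the vertical axis. The 826 risen genes are red and the 1075 fallen genes blue; among genes above the median signal the largest falls (Ccn2, Adamts1, Thbs1) reach further from 0 than the largest rises (Hmox1, Trib3, Asns), while below it Cxcl10 rose by 3.79.

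Among called genes above the median signal whose arrays did not overlap, termed bright here, the 3 largest falls were those of Ccn2, Adamts1 and Thbs1. The absence of overlap in bright genes, risen or fallen, follows from this choice. Ccn2, a secreted matricellular protein also known as connective tissue growth factor, had array signals of 5756 and 5343 at 3 h and 519 and 484 at 12 h. Both 12 h arrays lay far below both 3 h arrays, a 10.9-fold fall (log2 difference -3.45 ± 0.13 SE, limma adjusted p = 4.33e-09, n = 2 arrays per time). Thbs1, the matrix glycoprotein thrombospondin 1, went from 5282 and 5078 to 616 and 617, with 12 h arrays that nearly coincided (log2 difference -3.05 ± 0.11, adjusted p = 3.6e-09). Adamts1, a secreted metalloprotease, had signals of 1939.9 and 1862 at 3 h and 179.6 and 261 at 12 h, again with no overlap (log2 difference -3.09 ± 0.16, adjusted p = 9.47e-08). The rest of the 15 largest falls of bright genes were Klf6, Nr4a1, Ankrd1, Frmd4b, Efnb2, Id1, Unc50, Gas1, Spry2, Ccn1, Id3 and Mcl1, with log2 differences from -2.09 to -1.68. Ccn2, Thbs1 and Adamts1 kept their calls under every alternative setting run and without any 1 array. Gas1 lost its call when all probe sets of a gene were averaged.

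The largest rises of bright genes were those of Hmox1, Trib3, Asns and Slc7a5. Hmox1, heme oxygenase 1, which breaks down heme, had signals of 331 and 456 at 3 h and 2176 and 2303 at 12 h, a 5.67-fold rise with no overlap between the times (log2 difference 2.50 ± 0.18, adjusted p = 1.98e-06). Trib3, a pseudokinase induced through ATF4 and CHOP, had 675 and 685 at 3 h and 3075 and 3261 at 12 h, and both pairs of arrays were tight (log2 difference 2.21 ± 0.12, adjusted p = 1.1e-07). Asns, asparagine synthetase, had 1003 and 933 at 3 h and 4566 and 4334 at 12 h (log2 difference 2.19 ± 0.11, adjusted p = 9.47e-08). Slc7a5, the light chain of the leucine transporter LAT1, had 647 and 518 at 3 h and 2429 and 2594 at 12 h (log2 difference 2.10 ± 0.14, adjusted p = 1.84e-06). The rest of the 15 largest rises of bright genes were Ero1a, Odc1, Acss2, Ndrg1, Herpud1, Vegfa, Mthfd2, Hspa5, Psph, Sirt1 and H1f2, with log2 differences from 1.66 down to 1.25. H1f2, a linker histone, lost its call when all probe sets of a gene were averaged, and the difference of Odc1 dropped from 1.60 to 1.01. The Ndrg1 probe set can bind more than 1 transcript, so its signal is uncertain as a measure of Ndrg1 alone.

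**Figure D2:**
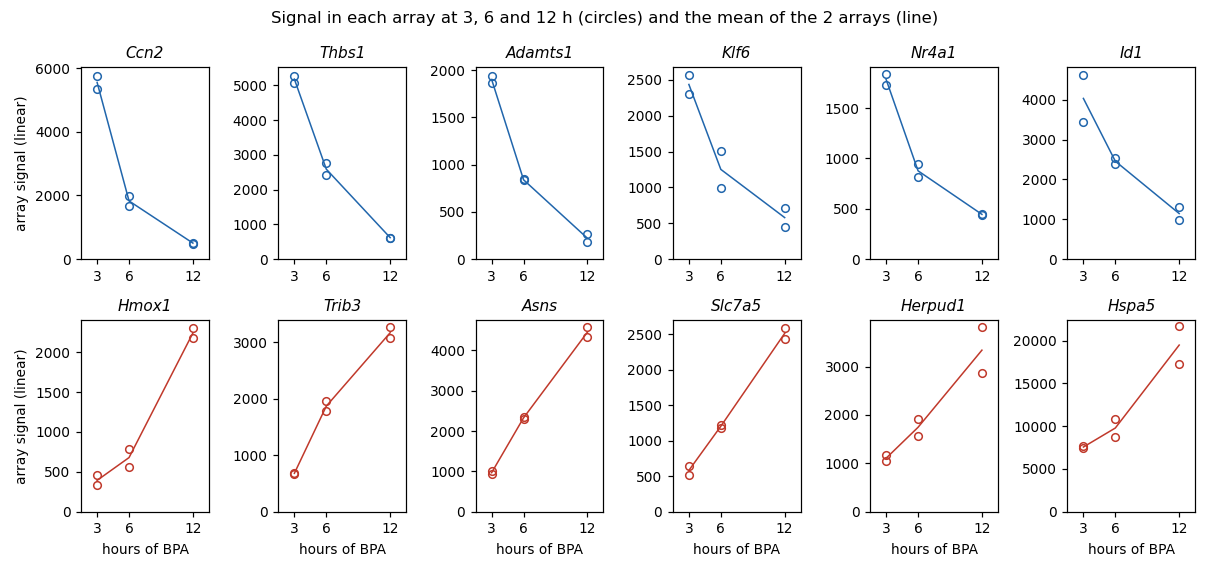
Signal in each array (circles) and the mean of the 2 arrays (line) on a linear scale against hours of BPA, for 6 genes that fell (top) and 6 that rose (bottom). All are bright genes, whose arrays were required not to overlap. Both 12 h arrays therefore lie beyond both 3 h arrays in every panel, as for Ccn2 (5756 and 5343 against 519 and 484) and Asns (1003 and 933 against 4566 and 4334).

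Among the genes tied to ATF4 and CHOP, 14 of 26 tested rose and 1 fell, with a median log2 difference of 0.44, against 9.52%, 12.4% and -0.01 over all tested genes. The message of Atf4 itself, which is controlled mainly at translation, was 13118 and 11887 at 3 h and 12311 and 11863 at 12 h, with overlapping arrays (log2 difference -0.05 ± 0.11, limma adjusted p = 0.795). Ddit3, which encodes CHOP, had signals of 4716 and 4605 at 3 h and 10492 and 9117 at 12 h and rose 2.1-fold (adjusted p = 3.99e-05). Gadd45a, a growth arrest and DNA damage gene, rose from 1019 and 948 to 2011 and 2205 (log2 difference 1.09 ± 0.12). Atf3 and Chac1, a transcription factor and an enzyme that degrades glutathione, were already bright at 3 h and their rises were small, at 0.41 and 0.47, and both calls were lost without the first 3 h or the first 12 h array. Ddit4, an inhibitor of the growth kinase mTORC1, was the member that fell, from 3878 and 3779.8 to 2130.4 and 2016 (log2 difference -0.88 ± 0.12).

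Of the enzymes that make amino acids and load one-carbon units, 11 of 18 tested rose and 1 fell, with a median of 0.52. Asns led them. Cth, which makes cysteine, was dimmer, with signals of 91.6 and 47 at 3 h and 217 and 281 at 12 h and no overlap (log2 difference 1.78 ± 0.30, adjusted p = 0.00128). Mthfd2, a mitochondrial folate enzyme, rose from 1212 and 1016 to 3274 and 2752 and Psph, the last enzyme of serine synthesis, from 1119 and 1099 to 2906 and 2509 (log2 differences 1.43 ± 0.15 and 1.28 ± 0.13). Glul, glutamine synthetase, fell from 1017 and 1368 to 544 and 609 (log2 difference -1.02 ± 0.17, adjusted p = 0.000972).

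Of 14 tested amino acid transporters, 6 rose and 2 fell, with a median of 0.44. Slc7a11, the cystine carrier of system xc-, was dim at 3 h, so the size of its rise is uncertain, with 42.2 and 52 at 3 h and 369 and 330.5 at 12 h and no overlap (log2 difference 2.71 ± 0.37, adjusted p = 0.000282). Slc7a1, a cationic amino acid carrier, had 64.8 and 61.9 at 3 h and 237 and 110 at 12 h: the 12 h arrays lay far apart, and without the first 12 h array its difference dropped from 1.25 to 0.73 and lost the call. Slc38a2, a sodium-coupled carrier of small neutral amino acids, fell from 3376 and 3256 to 1796 and 1823 (log2 difference -0.87 ± 0.15), and Slc6a6, the taurine carrier, from 466 and 785 to 254 and 214 (log2 difference -1.35 ± 0.22). Without the first 3 h array 3 were called higher.

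The cytosolic aminoacyl-tRNA synthetases and their partners, which attach amino acids to tRNAs, rose in 14 of 23 tested members, with 1 fall and a median of 0.57. Nars, which charges asparagine, had signals of 2574 and 2721 at 3 h and 5668 and 5221 at 12 h (log2 difference 1.04 ± 0.11, limma adjusted p = 3.99e-05). Tars, which charges threonine, had 1787 and 1491 at 3 h and 3256 and 3045 at 12 h (log2 difference 0.94 ± 0.13, adjusted p = 0.000314), and Gars, which charges glycine, had 1830.1 and 2184 at 3 h and 3553 and 3576 at 12 h (log2 difference 0.83 ± 0.12, adjusted p = 0.000411). In all 3 the arrays of the times stood apart. The other 11 risen members were smaller, from 0.43 for Farsa to 0.82 for Farsb, and the member that fell was the tRNA export factor Xpot, at -0.45, a call lost without either 0 h array, either 3 h array or the first 12 h array; without the last it was -0.28. With 1 array left out, between 12 and 15 members rose. Of 8 mitochondrial synthetases 1 rose and 1 fell, near the 9.52% and 12.4% over all tested genes. The difference between the lists of synthetases was not tested.

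**Figure D3:**
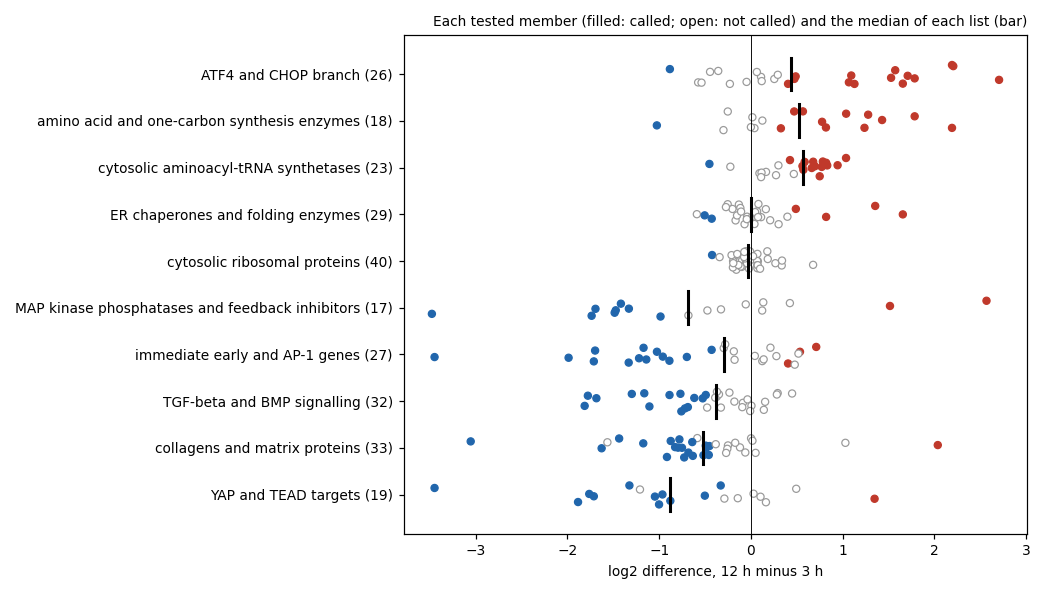
Log2 difference, 12 h minus 3 h, of each tested member of 10 gene lists; filled points are called (red higher, blue lower), open points are not, and the black bar is the list's median. The medians run from 0.57 for the cytosolic aminoacyl-tRNA synthetases to -0.88 for the YAP and TEAD targets, and the ribosomal proteins lie close to 0.

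The upstream sequences of 5 of these risen genes and of Hspa5 are shown because each holds an element known to bind a factor of the amino acid or ER stress response. RefSeq promoters (GRCm38.p6) were matched for 7098 of the 8675 tested genes and searched on both strands over the 250 bases before the gene start. The ATF4 and C/EBP composite element was sought as TGATGNAA and the ER stress element as CCAAT and CCACG with 9 bases of any kind between them, where N stands for any base. Capitals mark the composite element in the first 5 sequences and, in Hspa5, the ER stress element and an AP-1 element (TGAGTCA) further upstream. In Herpud1, Gars and Tars, and at the second site of Slc7a11, the composite element lies on the opposite strand. The marked elements do not overlap one another. All sequences are written 5' to 3' on the strand of the gene.
Asns (chr6:7693210-7693459, minus strand): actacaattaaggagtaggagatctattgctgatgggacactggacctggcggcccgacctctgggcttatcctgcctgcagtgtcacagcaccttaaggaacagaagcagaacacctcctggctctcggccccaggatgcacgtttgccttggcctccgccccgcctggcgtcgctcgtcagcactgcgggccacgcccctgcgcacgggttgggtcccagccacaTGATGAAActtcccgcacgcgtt
Slc7a11 (chr3:50443614-50443863, minus strand): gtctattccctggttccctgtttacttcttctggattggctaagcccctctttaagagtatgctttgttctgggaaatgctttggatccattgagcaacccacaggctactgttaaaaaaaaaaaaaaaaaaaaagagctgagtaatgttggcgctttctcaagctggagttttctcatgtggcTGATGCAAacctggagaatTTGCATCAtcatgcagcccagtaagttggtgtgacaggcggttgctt
Herpud1 (chr8:94386179-94386428, plus strand): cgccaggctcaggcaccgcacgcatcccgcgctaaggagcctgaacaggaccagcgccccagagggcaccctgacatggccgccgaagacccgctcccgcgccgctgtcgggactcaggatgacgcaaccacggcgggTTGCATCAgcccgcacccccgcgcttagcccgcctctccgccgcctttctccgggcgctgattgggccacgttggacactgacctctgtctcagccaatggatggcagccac
Gars (chr6:55037751-55038000, plus strand): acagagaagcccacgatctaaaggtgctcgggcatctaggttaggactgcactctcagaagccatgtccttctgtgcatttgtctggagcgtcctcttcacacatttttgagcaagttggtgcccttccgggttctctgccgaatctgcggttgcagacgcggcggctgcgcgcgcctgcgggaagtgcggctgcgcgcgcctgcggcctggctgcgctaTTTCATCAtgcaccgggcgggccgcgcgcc
Tars (chr15:11399659-11399908, minus strand): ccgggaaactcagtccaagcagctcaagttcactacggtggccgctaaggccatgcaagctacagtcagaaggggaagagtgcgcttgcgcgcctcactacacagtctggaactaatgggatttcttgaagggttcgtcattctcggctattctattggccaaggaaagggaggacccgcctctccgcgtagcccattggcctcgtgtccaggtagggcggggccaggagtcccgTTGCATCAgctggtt
Hspa5 (chr2:34771840-34772089, plus strand): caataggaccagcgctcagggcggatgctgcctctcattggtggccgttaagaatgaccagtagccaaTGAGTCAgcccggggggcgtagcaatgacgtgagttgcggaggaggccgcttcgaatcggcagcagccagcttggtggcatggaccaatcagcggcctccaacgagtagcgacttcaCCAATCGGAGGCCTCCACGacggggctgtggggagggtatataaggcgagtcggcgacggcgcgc

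The composite element lay 23 to 16 bases before the start of Asns, 112 to 105 before that of Herpud1, 30 to 23 before that of Gars and 15 to 8 before that of Tars, and Slc7a11 held it at 66 to 59 and again at 47 to 40 bases. It was found in 5 of the 62 genes with a promoter that had risen at least 2-fold (8.06%), namely Asns, Fbln5, Herpud1, Sfxn4 and Slc7a11. It was found in 4 of the 229 that had fallen at least 2-fold (1.75%), namely Frmd4b, Mmp10, Rbm47 and Samd4. Of all 7098 tested genes with a promoter 162 held it (2.28%), as did 3.45% of all 32851 promoters of the table. In the form searched, the ER stress element lay 65 to 47 bases before the start of Hspa5. That form was found in 1 of the 62 risen genes (1.61%) and in 0.113% of all promoters. Other forms of the element were not sought. The Herpud1 sequence ends in ccaatggatggcagccac, the searched form without its last letter, which would fall outside the stretch searched. Herpud1 also holds attgggccacg, with CCAAT on the opposite strand and closer to CCACG than in the searched form. The AP-1 element was held by 9.68% of these risen genes, 5.24% of the fallen genes, 4.31% of tested genes with a promoter and 4.46% of all promoters. Shares of genes count a match at any start of a gene, while shares of all promoters count each promoter singly. A match describes the letters and not binding.

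Of 29 tested ER chaperones and folding enzymes 4 rose (13.8%) and 2 fell (6.9%), and the median was 0.00. The shares over all tested genes were 9.52% higher and 12.4% lower. The falls were 1 without the second 0 h, the first 3 h or the first 12 h array, and none was called without the second 3 h array. Hspa5, which encodes the chaperone BiP, rose from 7652 and 7469.5 to 21669.7 and 17272 (log2 difference 1.35 ± 0.13, limma adjusted p = 2.42e-05), with no overlap. Ero1a, which passes electrons from protein disulfide isomerase to oxygen, rose from 301 and 319 to 977 and 1011 (log2 difference 1.66 ± 0.15), and Xbp1, a transcription factor spliced by IRE1, from 1738 and 1774 to 3041 and 3172 (log2 difference 0.82 ± 0.12). The Xbp1 probe set can bind more than 1 transcript, and the arrays do not separate spliced from unspliced Xbp1. The chaperones Hsp90b1, Calr and Canx were not called, at 0.21, -0.25 and -0.20. Herpud1, an ER membrane protein of the degradation pathway, had 1163 and 1052 at 3 h and 3821 and 2858 at 12 h and rose 2.97-fold (log2 difference 1.57 ± 0.15, adjusted p = 2.01e-05). Among the 31 genes of ER degradation, translocation and signal peptide removal, 5 rose and 5 fell (16.1% each). Spcs3, a signal peptidase subunit, fell from 3446 and 3913 to 1879.9 and 1849 (log2 difference -0.97 ± 0.11). The 5 rises became 1 when any single 3 h or 12 h array was left out, and 3 without either 0 h array, and the 5 falls were 3 without either 3 h array.

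Of 28 cytosolic heat shock proteins and their partners, 5 rose (17.9%) and 2 fell (7.14%), against 9.52% and 12.4% over all tested genes. Without the first 3 h array or either 12 h array 3 were called higher, and without any 1 of the 3 h and 12 h arrays 1 was called lower. Hspa1a and Hspa1b, near-identical genes for the inducible HSP70, rose from 582 and 633 to 952 and 1273 and from 2057 and 2208 to 3830.4 and 4352 (log2 differences 0.85 ± 0.16 and 0.94 ± 0.12), and their probes cannot be assumed to tell the genes apart. Cryab, a small heat shock protein, fell from 1092 and 1242 to 605 and 669 (log2 difference -0.86 ± 0.17).

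Targets of NRF2, the transcription factor of oxidant defence, rose in a few members by much and were otherwise not called. Hmox1 and Slc7a11 rose, as did Sqstm1, an autophagy receptor, from 8015 and 7438 to 17688 and 14934 (log2 difference 1.07 ± 0.13, limma adjusted p = 0.000116). In all, 5 of 21 tested members rose (23.8%) and no member was called lower, where 4 were lower at an unadjusted p under 0.05. The list's median was -0.06, and the shares over all tested genes were 9.52% higher and 12.4% lower. Nqo1, a quinone reductase commonly used as a marker of NRF2, was not called, at 0.35 (adjusted p = 0.165). Of 16 glutathione transferases 3 fell (18.8%), against 12.4% over all tested genes. Among them Gstm1 fell from 889 and 839.6 to 376 and 411 (log2 difference -1.12 ± 0.13), although its probe set can bind related transcripts. Ahr, the dioxin receptor, fell from 584 and 522 to 226 and 282 (log2 difference -1.11 ± 0.15, adjusted p = 0.000281) and Arnt, its partner, rose from 434 and 482 to 891 and 802 (log2 difference 0.88 ± 0.14), a call lost when all probe sets of Arnt were averaged. The estrogen receptor gene Esr1 was too dim to test, with signals of 27.6 and 33.5 at 3 h and 26.8 and 43.9 at 12 h.

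The steepest rise of any tested gene was that of Cxcl10, a chemokine that attracts T cells. Its signals were 191 and 109.5 at 3 h, 448 and 532 at 6 h and 2029 and 2168 at 12 h, a 13.8-fold rise with no overlap (log2 difference 3.79 ± 0.24, limma adjusted p = 1.13e-06). It was the only one of 17 tested chemokines and cytokines to rise (5.88%), and 2 fell (11.8%), or 1 when any single 3 h or 12 h array was left out. The shares over all tested genes were 9.52% and 12.4%. Cxcl12, a chemokine made by stromal cells, fell from 2479 and 2846 to 856 and 828 (log2 difference -1.65 ± 0.11, adjusted p = 1.46e-06). Socs2, a feedback inhibitor of cytokine and growth hormone receptors, rose from 73.5 and 92.1 to 488 and 569 (log2 difference 2.57 ± 0.25, adjusted p = 2.01e-05). Of 23 genes of the NF-kB system 5 rose, with a median of 0.23, led by the subunit gene Relb, from 212 and 226 to 391 and 431 (log2 difference 0.88 ± 0.19). Without the first 3 h array 1 member was called higher, and without the second 3 h or the first 12 h array 3 were. Of 33 interferon response genes 2 rose and 3 fell, below the shares over all tested genes.

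Immediate early genes, which growth factors and stress turn on within minutes, fell in 13 of 27 tested members and rose in 3, with a median of -0.30, against 12.4% lower over all genes. Nr4a1, an orphan nuclear receptor, had signals of 1834 and 1734 at 3 h and 442 and 446 at 12 h and fell 3.96-fold (log2 difference -1.99 ± 0.14, limma adjusted p = 1.65e-06). Egr1, a zinc finger factor, was among the brightest genes at 3 h, at 14135 and 13968, and stood at 5123 and 7101 at 12 h (log2 difference -1.22 ± 0.15, adjusted p = 0.000118). Fos fell from 2440.4 and 2596 to 1241 and 1341 (log2 difference -0.96 ± 0.12, adjusted p = 0.000129). Jun, its partner in AP-1, fell less, from 5159.9 and 4682 to 3294 and 4046 (log2 difference -0.43 ± 0.12), and its call was lost without either 3 h array, without the first 12 h array, where it was -0.28, and on arrays scaled to the same median. With 1 array left out, 11 to 13 members were called lower, and the 3 rises became 1 without the first 3 h or either 12 h array.

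Kruppel-like zinc finger factors fell in 5 of 10 tested members, led by Klf6, with 2305 and 2567 at 3 h and 448 and 709 at 12 h (log2 difference -2.09 ± 0.21, adjusted p = 2.74e-05). Klf9 fell from 1906 and 2127 to 937 and 1021 (log2 difference -1.04 ± 0.12), a call lost when its probe sets were averaged, and 2 members, Klf2 and Klf5, rose by 0.84 and 0.68. The call of Klf2 was lost when any single 3 h or 12 h array was left out and that of Klf5 when its probe sets were averaged. Without the first 3 h array 2 falls were called and without the first 12 h array 3.

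Feedback inhibitors of MAP kinase signalling fell in 8 of 17 tested members and rose in 2, with a median of -0.68. Trib1, an adaptor for protein degradation, was dim, with 176 and 155 at 3 h and 8.6 and 6.7 at 12 h, and its 12 h arrays lay near 0, so its fold change is uncertain (log2 difference -3.48 ± 0.43, adjusted p = 0.000143). Spry2 and Spred2, inhibitors of RAS and RAF signalling, fell from 1338 and 1385 to 378 and 429.7 and from 604 and 767 to 180.4 and 232 (log2 differences -1.74 ± 0.15 and -1.69 ± 0.17). The dual specificity phosphatases Dusp10, Dusp6, Dusp16 and Dusp1 fell, with differences between -1.49 and -0.98. Genes for mRNA decay and silencing fell in 7 of 17 tested members, with a median of -0.39, led by Tnrc6b, a partner of Argonaute, from 646 and 533 to 216 and 268 (log2 difference -1.26 ± 0.16). Without the second 3 h or the first 12 h array, 4 were called lower.

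Collagens and other matrix proteins fell in 19 of 33 tested members (57.6%) and rose in 1, with a median of -0.52. Col1a1 and Col3a1, chains of the fibrillar collagens, had 1068 and 1001 at 3 h and 315 and 344 at 12 h and 5304 and 4824 at 3 h and 1894 and 1835 at 12 h, with no overlap in either (log2 differences -1.63 ± 0.13 and -1.44 ± 0.12, limma adjusted p = 5.38e-06 and 9.6e-06). Fn1, fibronectin, and Bgn, biglycan, were not called, at 0.02 and 0.05. Fbln5, an elastic fibre protein, was the member that rose, from 33.7 and 5.4 to 84.4 and 93.1, but it was dim and without the second 3 h array its difference dropped from 2.04 to 1.22 and lost the call. Without either the first 3 h or the first 12 h array the number of matrix proteins called lower was 10, and without the second 3 h array 12.

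Enzymes that cut or cross-link matrix, with their inhibitors, fell in 14 of 33 tested members and rose in 2, with a median of -0.41. Mmp11, a matrix metalloprotease, fell from 564 and 484 to 128 and 131 (log2 difference -1.95 ± 0.16, adjusted p = 5.66e-06), and Mmp13, a collagenase, rose from 166 and 268 to 467 and 596 (log2 difference 1.29 ± 0.25, adjusted p = 0.003). Mmp3, another metalloprotease, was dim and its 12 h arrays disagreed, at 2 and 33.9, and its call ended without either 3 h array or the first 12 h array, where the difference went from -2.27 to -1.23. Leaving out the first 3 h, the second 3 h or the second 12 h array left 8, 7 and 9 falls, and leaving out any 0 h, 3 h or 12 h array gave 1 rise.

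Of the 6 tested markers of peritubular and fibroblast cells 2 fell, Col1a1 and Dcn, which are also matrix genes (1 without the second 3 h or the first 12 h array). Acta2, Des, Col1a2 and Pdgfra were not called, and no marker was called higher at an adjusted or an unadjusted p under 0.05 in the limma fit. The summed signal of the 10 markers on the array was 7494 to 7713 at 3 h and 4647 to 5448 at 12 h. Dcn, decorin, made up most of it, at 5941 and 6084 and 3908 and 4671. The contractile markers Myh11, Cnn1 and Tagln were too dim to test, and Acta2 had 95.3 and 234 at 3 h and 37.8 and 98.3 at 12 h. Their part in the fall of the matrix genes was not tested. In such bulk RNA, fewer cells of a type and less RNA per cell cannot be told apart.

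Targets and parts of the YAP and TEAD pathway fell in 11 of 19 tested members and rose in 1, with a median of -0.88. Ccn2 and Ccn1, which also stand among the immediate early genes, were joined by Ankrd1, a nuclear ankyrin repeat protein, with 2586 and 2029.6 at 3 h and 622 and 608 at 12 h (log2 difference -1.88 ± 0.15, limma adjusted p = 5.32e-06). Ccn1 had 10503 and 9046 at 3 h and 3156 and 2794 at 12 h (log2 difference -1.71 ± 0.12), on a probe set that can bind other transcripts too. Yap1 itself fell, with a log2 difference of -0.88. Tead1, the DNA-binding partner, rose from 114 and 89.8 to 271 and 269.6 (log2 difference 1.35 ± 0.27, adjusted p = 0.00383). With 1 array left out, 8 to 12 members were called lower. Lats2, a kinase that restrains YAP, fell from 208 and 275 to 64.3 and 65.6 (log2 difference -1.76 ± 0.26), but its difference shrank to -0.36 and lost the call when its probe sets were averaged.

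TGF-beta and BMP signalling genes fell in 14 of 32 tested members, with a median of -0.38, and no member was called higher, where 1 was at an unadjusted p under 0.05. Ligands, receptors and targets were all among the falls. The ligand Bmp4 went from 612 and 759.5 to 252 and 294 (log2 difference -1.30 ± 0.20, adjusted p = 0.000682). The co-receptor Tgfbr3 was dimmer, at 158 and 172 and 31.1 and 57.2 (log2 difference -1.78 ± 0.33, adjusted p = 0.00201), and the receptor chains Tgfbr2 and Tgfbr1 fell (log2 differences -1.11 and -0.62). Id1 and Id3, inhibitors of helix-loop-helix factors and direct BMP targets, had 4625 and 3436 at 3 h and 1309.9 and 975 at 12 h and 12173 and 10433 at 3 h and 3703 and 3309.5 at 12 h (log2 differences -1.81 ± 0.16 and -1.68 ± 0.14, adjusted p = 9.6e-06 and 6.21e-06). The SMAD genes Smad2, Smad3 and Smad4 were not called, at 0.29, -0.09 and -0.04. Without the second 3 h or the first 12 h array 7 and 8 members were called lower.

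**Figure D4:**
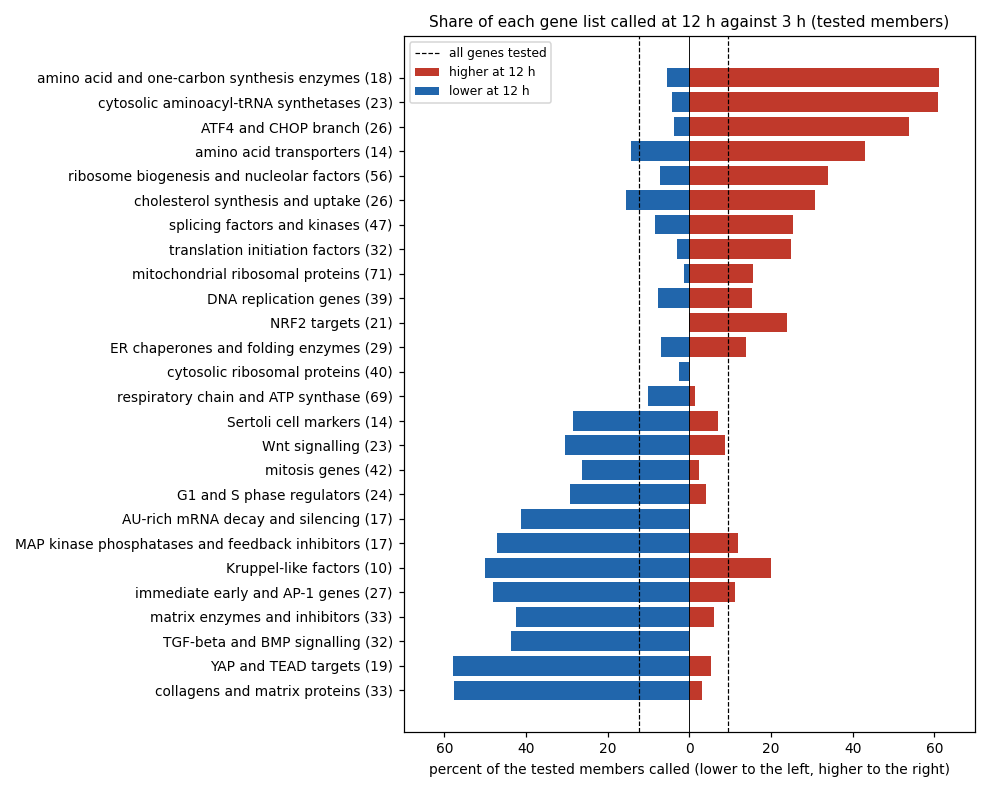
Percent of the tested members of 26 gene lists that were called lower (left, blue) or higher (right, red) at 12 h against 3 h, with the number tested in brackets; dashed lines mark the shares over all tested genes, 12.4% and 9.52%. The collagens and matrix proteins reach 57.6% lower and the amino acid and one-carbon synthesis enzymes 61.1% higher, while the cytosolic ribosomal proteins stay below both lines.

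Among 23 Wnt pathway genes 7 fell (30.4%) and 2 rose (8.7%), against 12.4% and 9.52% over all tested genes. Without either 3 h array 4 were called lower, and without the second 1 was called higher. Ccn4, a Wnt-induced secreted protein, fell from 903 and 982 to 356 and 482 (log2 difference -1.17 ± 0.15), and Axin2, a common readout of the pathway, from 132 and 132 to 44 and 58.9 (log2 difference -1.25 ± 0.29), a call that was lost when its probe sets were averaged and without 3 of the 4 arrays compared. In the actin and integrin list 11 of 48 fell (22.9%) and 2 rose (4.17%), and on arrays scaled to the same median 6 fell and 6 rose. With 1 of the 3 h or 12 h arrays left out, 5 to 7 were called lower and 1 or none higher. Rhob, a small GTPase, fell from 3570.3 and 3848 to 1596 and 1621 (log2 difference -1.20 ± 0.10, limma adjusted p = 9.86e-06) and Itga5, a fibronectin receptor chain, from 342 and 328 to 169 and 156 (log2 difference -1.01 ± 0.18).

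Regulators of G1 and S phase fell in 7 of 24 tested members and rose in 1. The D-type cyclins, which start the cycle, fell: Ccnd1 from 816 and 860 to 367 and 424 and Ccnd2 from 5784 and 5292 to 2649 and 2685 (log2 differences -1.07 ± 0.14 and -1.05 ± 0.12, limma adjusted p = 0.000215 and 6.12e-05). Myc fell from 3743 and 3445 to 2204 and 2262 (log2 difference -0.68 ± 0.10, adjusted p = 0.000603), and Cdkn1a, the inhibitor p21, was not called, at 5224 and 5652 against 4450.2 and 4920.4 (log2 difference -0.21 ± 0.12, adjusted p = 0.234). Mitosis genes fell in 11 of 42 tested members and rose in 1, with small differences led by Ube2c and Plk1, at -0.69 and -0.69. The mitosis count dropped to 4 without either 3 h array and to 6 without the second 12 h array or on arrays scaled to the same median. DNA replication genes rose in 6 (15.4%) and fell in 3 (7.69%) of 39, or 11 and 1 on arrays scaled to the same median. The shares over all tested genes were 9.52% higher and 12.4% lower. The rises were 2 without either 3 h array and 1 without the second 12 h array, and the falls 1 without either 0 h array, the second 3 h array or the second 12 h array. Among them Tk1, thymidine kinase, fell most, from 1181 and 1064 to 573 and 542 (adjusted p = 0.000213).

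Of 23 genes linked to p53, 5 rose (21.7%) and 7 fell (30.4%), against 9.52% and 12.4% over all tested genes. Without the first 12 h array 3 were called higher, and without that array or the second 3 h array, or on arrays scaled to the same median, 4 were called lower. Plk3, a stress-activated kinase, rose from 152 and 148 to 438 and 454 (log2 difference 1.52 ± 0.20, limma adjusted p = 0.000202) and Sesn1, a stress-induced inhibitor of mTORC1, fell from 1214 and 1243 to 516 and 546 (log2 difference -1.20 ± 0.12), on a probe set that can bind other transcripts. In the BCL2 family and caspases 6 of 27 fell (22.2%) and 2 rose (7.41%). Without the first 12 h array 3 were called lower, the rises were 1 without the second 3 h or the second 12 h array, and no rise was called without the first 3 h or the first 12 h array. Mcl1, a short-lived survival protein, had 3125 and 2737 at 3 h and 1068 and 772 at 12 h (log2 difference -1.68 ± 0.14, adjusted p = 9.6e-06), again on a probe set that can bind other transcripts. Apaf1, the scaffold of the apoptosome, fell from 410.4 and 594 to 213 and 248 (log2 difference -1.08 ± 0.19).

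Ribosome biogenesis and nucleolar factors rose in 19 of 56 tested members and fell in 4, with a median of 0.30. The rises were modest, with 18 of the 19 below 2-fold. Nop14, a factor of small subunit assembly, went from 1001 and 1148 to 1768 and 1947 (log2 difference 0.79 ± 0.14, limma adjusted p = 0.00176), and Rrp12 from 114 and 117 to 217 and 284 (log2 difference 1.05 ± 0.26), a call lost without the first 3 h or the second 12 h array. The count of rises was 8 without the second 3 h array, 10 and 9 without either 12 h array, and 31 on arrays scaled to the same median, where 1 fell. With 1 of the 3 h or 12 h arrays left out, the 4 falls became 1 or 2. Of the ribosomal proteins of the cytosol 1 of 40 fell, the median was -0.03 and no member was called higher, where 2 were at an unadjusted p under 0.05. Mitochondrial ribosomal proteins rose in 11 of 71 (15.5%) and fell in 1 (1.41%), against 9.52% and 12.4% over all tested genes. The rises were 24 on arrays scaled to the same median, 7 and 6 without the first and the second 3 h array, 4 without the first 12 h array and 5 without the intensity trend. Of 32 translation initiation factors 8 rose, among them Eif2s2, the beta subunit of eIF2, from 5178 and 5369 to 8899.9 and 9043 (log2 difference 0.77 ± 0.11), and Eif4ebp1, a repressor of cap-dependent translation, from 2148 and 2261 to 4273 and 3324 (log2 difference 0.77 ± 0.15). Without the second 3 h or the first 12 h array the number called higher was 3 and 4, and on arrays scaled to the same median 12 rose. Splicing factors rose in 12 of 47 and fell in 4, and the rises were 2 and 5 without the first and the second 3 h array, 5 and 4 without the first and the second 12 h array, and 18 on arrays scaled to the same median.

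In lipid metabolism, Acss2, which makes acetyl-CoA from acetate, rose most, from 407 and 365 to 1266 and 1115 (log2 difference 1.60 ± 0.14, limma adjusted p = 9.6e-06). Acly, which makes acetyl-CoA from citrate, rose from 9256 and 9208 to 17058 and 14647 (log2 difference 0.78 ± 0.11). Of 26 genes of cholesterol synthesis and uptake 8 rose (30.8%) and 4 fell (15.4%), with a median of 0.31. The shares over all tested genes were 9.52% higher and 12.4% lower. Hsd17b7 and Lss, enzymes of the later steps, rose by 0.83 and 0.73, while Hmgcs1, which acts early in the pathway, was not called, at 12948 and 14934 against 13530.4 and 12339 (log2 difference -0.11 ± 0.13, adjusted p = 0.609). The cholesterol exporter Abca1 fell from 131 and 215 to 38.1 and 38.7 (log2 difference -1.93 ± 0.29, adjusted p = 0.000545) and Srebf1, a lipogenic transcription factor, from 2571 and 2357 to 1689 and 1583 (log2 difference -0.59 ± 0.13), a call lost without the first 3 h array. The 8 rises became 4 without the first 3 h array, 5 without the second 3 h or the first 12 h array and 15 on arrays scaled to the same median, and the 4 falls became 1 without the first 3 h array. The Lss probe set can bind more than 1 transcript.

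Vegfa, the endothelial growth factor, and Ndrg1, a stress-responsive gene, rose, Vegfa from 670 and 494 to 1684 and 1665 (log2 difference 1.53 ± 0.16, limma adjusted p = 4.26e-05). They did so within a list of hypoxia and glycolysis genes of which 5 of 26 were called higher and 5 lower (19.2% each). The shares over all tested genes were 9.52% and 12.4%. With any single 3 h or 12 h array left out the rises were 3, and the falls were 2 without the first 3 h array and 3 without the second 3 h or the second 12 h array. The glycolytic enzymes Pgam1 and Ldha fell, from 2723 and 2688 to 1614 and 1592 and from 5279.5 and 4197 to 3338 and 3089 (log2 differences -0.75 ± 0.10 and -0.55 ± 0.12), the second call being lost without the first 3 h array. Respiratory chain and ATP synthase genes fell in 7 of 69 and rose in 1, below the shares over all genes, and the falls ranged from 3, without the first 3 h array, to 10 with 1 array left out. They were 4 without the second 3 h or the second 12 h array and on arrays scaled to the same median.

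Sertoli markers were only partly present. Of 23 markers on the array 14 were bright enough to test; Amh, Fshr, Dhh, Cldn11, Gdnf, Dmrt1, Aard, Cst9 and Cst12 were not, while Vim, Clu, Gata6, Gata4 and Krt18 were bright. The summed signal of the 23 markers was 30421 to 31363 at 3 h and 27142 to 27928 at 12 h. Vim, which was not called, made up the largest part, at 14793 and 15143 and 16211 and 14535. Much of the drop in the sum lay in the single gene Clu, whose values are given below. From 3 h to 12 h 4 of the 14 fell (28.6%) and 1 rose (7.14%), against 12.4% and 9.52% over all tested genes. Without the second 3 h or the first 12 h array 2 were called lower. Gata6, a transcription factor, fell from 1696 and 1664 to 733 and 931 (log2 difference -1.02 ± 0.14, limma adjusted p = 0.000234), and Clu, clusterin, a major secreted product, from 6225 and 6841 to 3089 and 3729 (log2 difference -0.94 ± 0.11, adjusted p = 0.000118), on a probe set that can bind other transcripts. Inhbb, the beta B chain of inhibin, fell from 263 and 243 to 147 and 161 and Wt1 from 165 and 262 to 104 and 96.7. Both calls ended without some single arrays, the first 12 h array among them. The call of Inhbb was also lost when its probe sets were averaged. Gata4 and Sox9 were not called, at 0.06 and -0.28. When its probe sets were averaged Sox9 was called lower, and over the alternatives its difference went as far as -1.02.

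Among junction genes of the blood-testis barrier 4 of 17 fell (23.5%) and 1 rose (5.88%), with 2 falls without the second 3 h array. The shares over all tested genes were 12.4% lower and 9.52% higher. F11r, the junctional adhesion molecule JAM-A, fell from 3878 and 3899 to 1956 and 1660.4 (log2 difference -1.11 ± 0.12, limma adjusted p = 4.77e-05), a call lost when its probe sets were averaged, and Nectin2, an adhesion molecule, from 468 and 532 to 299 and 257 (log2 difference -0.83 ± 0.15). The tight junction scaffold Tjp1 rose by 0.31, a call lost without any 1 of the arrays at 0 h, 3 h or 12 h, and Gja1, connexin 43, was not called, at -0.13. Irs1, an adaptor of the insulin receptor, fell from 535 and 569.9 to 244 and 266 (log2 difference -1.09 ± 0.14, adjusted p = 0.000187).

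Markers of other testis cells were mostly too dim to test. Of 16 germ cell markers 3 were tested and 1 fell, Kit, a receptor that is not confined to germ cells, from 602 and 601 to 169.8 and 289 (log2 difference -1.41 ± 0.20, limma adjusted p = 0.000374). The summed germ cell marker signal, Kit included, was 1063 to 1094 at 3 h and 592 to 620 at 12 h. Dazl, Ddx4, Sycp3 and Tnp1 were below the limit for testing. Macrophage markers summed to 834 to 915 at 3 h and 797 to 867 at 12 h, Leydig cell markers to 2612 to 2784 and 2501 to 2671, and endothelial markers to about the same at both times (500 to 502 and 512 to 517).

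The arrays at 6 h place the changes within the interval. From 3 h to 6 h 97 genes were called (1.12% of those tested; 49 higher, 0.565%, and 48 lower, 0.553%) and from 6 h to 12 h 414 genes (4.77%; 80 higher, 0.922%, and 334 lower, 3.85%). Both steps use the 6 h arrays and share the 3 h or 12 h arrays with the full comparison, so their values are given side by side and the difference between the steps was not tested. Without the first 3 h array the first step had 30 calls, without the second 3 h array 39, without the first 6 h array 59 and without either 0 h array 61. The second step had 154 calls without the first 12 h array and 247 and 255 without the first and the second 0 h array.

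Thbs1 fell in both steps, with 5282 and 5078 at 3 h, 2419 and 2755 at 6 h and 616 and 617 at 12 h. The log2 difference of Adamts1 was -1.17 in the first step and -1.92 in the second, and that of Ccn2 -1.60 and -1.84 (limma adjusted p = 6.18e-05 and 1.14e-05). Asns rose by 1.26 and then 0.93, and Trib3 by 1.45 and then 0.76, all called. Some genes had their called change in the first step, such as Ero1a, with 1.24 and then 0.42, Vegfa, with 1.17 and then 0.35, and the sterol enzyme Cyp51, with 0.51 and then -0.01. Others had it in the second step, such as Fos, with 0.14 and then -1.10, Klf10, with 0.27 and then -0.90, the clock repressor gene Bhlhe40, with 0.00 and then -1.34, Hspa1a, with -0.17 and then 1.02, and Tars, with -0.02 and then 0.96.

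Members of the lists were counted in each step too. The ATF4 and CHOP genes had 8 rises in the first step and 7 in the second, with medians of 0.37 and 0.11. The cytosolic aminoacyl-tRNA synthetases had 5 rises in the second step and none called in the first by limma, where 9 were higher at an unadjusted p under 0.05, and their medians were 0.22 and 0.26. Cholesterol genes had 3 rises in the first step and a median of 0.33, against a median of -0.08 and 1 fall in the second. The YAP and TEAD targets had 3 falls and then 8, the collagens and matrix proteins 2 and then 7, and the immediate early genes 4 and then 8.

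**Figure D5:**
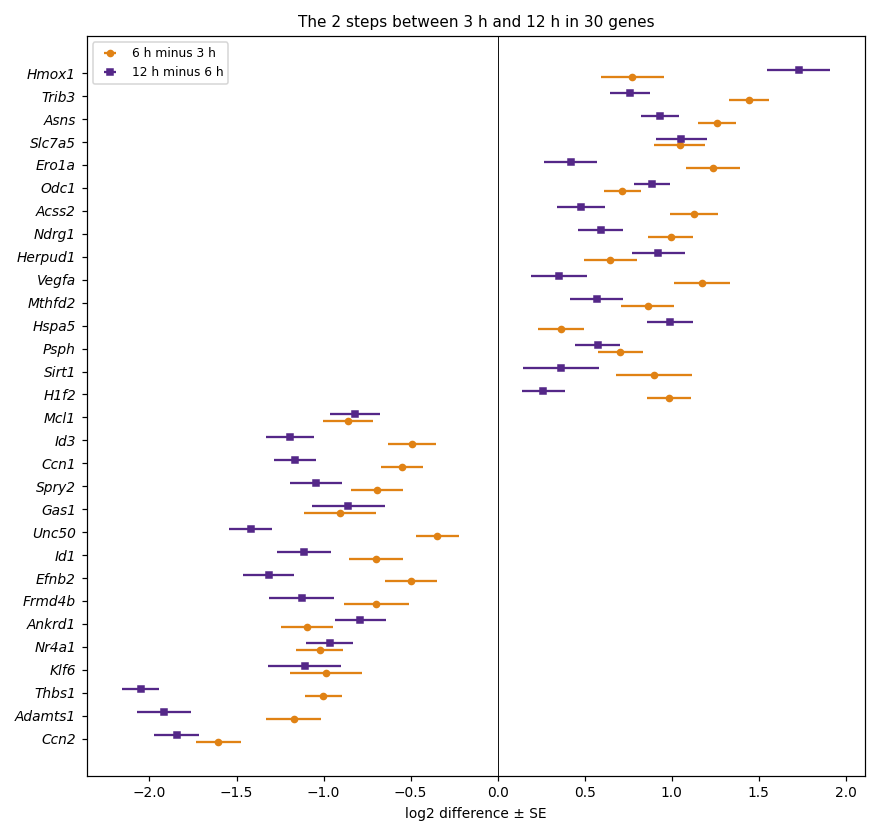
Log2 difference with its standard error for the step from 3 h to 6 h (orange circles) and from 6 h to 12 h (purple squares), for the 30 bright genes with the largest rises and falls. Thbs1, Adamts1 and Unc50 lie further from 0 in the second step, and Trib3, Ero1a and Vegfa in the first.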

How the data were processed

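RNA from TTE3 cells in 0.2 mM BPA was measured on 8 Affymetrix 430A arrays, 2 each at 0, 3, 6 and 12 h, per the labels. The deposited values are intensity signals on a linear scale, 1 per probe set, which the authors had scaled so that each array's trimmed mean is 500.2 (tested on the values, trimming 2% at each end). For the software and summary method, nothing was given in the sources used here. Of 22690 probe sets, 64 were controls, 20380 had 1 gene symbol, 691 several and 1555 none in the platform annotation; symbols were updated through RefSeq (GRCm38.p6) for 20351 and kept for 29. The probe set with the highest mean stood for each of 12393 genes.

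Signals were taken as log2(signal + 7.9), the offset being their 10th percentile, and 3718 genes under the 30th percentile of the mean were left out. All 8 arrays were fitted together with limma 3.58.1 in R 4.3.3 (lmFit, 1 mean per time, eBayes with an intensity trend, 4 residual and 9.00 prior degrees of freedom), the contrast being 12 h minus 3 h, two-sided, with Benjamini-Hochberg adjustment over 8675 genes. Errors are standard errors of the log2 difference from this fit; their precision is limited by the number of arrays. On simulated data for this comparison (10 runs on 8675 genes with 200 changed) the fit found 81.7% of 2-fold and 97.8% of 4-fold changes, with 6.43% false calls. The simulated noise was independent between arrays and took its size from the fit, and far fewer genes were changed than the 1901 called here. These rates may therefore not hold for the data. Beyond log2 of the intensity signals, no further normalization was applied. The steps from 3 h to 6 h and from 6 h to 12 h came from the same fit.

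The comparison, the 60 gene lists and the genes named were chosen with earlier results of these data known. Named genes are the 15 largest rises and 15 largest falls (called, above the median signal, arrays not overlapping), up to 3 called members per list and direction, and a set of genes named whatever their result, of which a few are not analysed here. Genes outside this rule (Dusp1, Dusp6, Dusp10, Dusp16, Yap1, Tgfbr1, Tgfbr2, the SMAD genes, Gata4, Gja1, Fn1, Bgn, Nqo1, Hsp90b1, Calr, Canx, Farsa, Farsb, Sfxn4, Mmp10, Rbm47, Samd4 and markers) were chosen after their values were seen. A list is described by counts and its median, with no test of the list. Probe sets marked _s_at or _x_at can bind more than 1 transcript. Promoters are RefSeq's, matched by symbol. Alternatives were other offsets and filters, array scaling to an equal median, quantile normalization, no trend, the 4 compared arrays alone, the replicate number as a block, the mean of all probe sets of a gene, and leaving out each array.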

Additional observations from a re-analysis of the deposited data

How the results depend on the processing

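The count of 1901 called genes stayed within 1.5 times under every alternative that kept all arrays. The 826 rises became 1410 on arrays scaled to the same median and 509 without the intensity trend, a change in which the falls stayed within 1.5 times. Leaving out 1 array in turn gave 1008 to 2151 called genes, 405 to 963 higher and 603 to 1189 lower. The 97 genes of the step from 3 h to 6 h became 56 without the filter and 6 without the trend, and 30 to 129 with 1 array left out; the 414 of the step from 6 h to 12 h became 274, 114 and 154 to 428. The replicate number shared across times is not said to pair arrays, and deviations of same-numbered arrays correlated at -0.011 to 0.122, with 1 of 6 above 0.1. With it as a block 2252 genes were called, and 226 and 703 in the steps. Averaging all probe sets of a gene reversed the sign of 8 named genes: Ube2d3 to -0.273, Eif5b to -0.352, Atg3 to -0.296, Mafg to -0.038, Herc2 to -0.277, Mt1 to -0.681, Rrp1b to 0.008 and Mnt to 0.021. The causes were not tested. Of 235 named and called genes, 130 were called under all 18 alternatives that gave a value, and 105 lost the call in at least 1. With 2 arrays per time, a difference that was not called may still be present.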

Other observations

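Several groups outside the comparisons above also held called genes. Surface glycoproteins and tetraspanins fell in 10 of 27 tested members and rose in 4. Without either 3 h array 6 were called lower, and the rises were 1 without the first 3 h array and 2 without the second 3 h or the first 12 h array. Cd24a, a small mucin-like surface protein, fell from 2040.3 and 2213 to 908 and 1041 (log2 difference -1.12 ± 0.13), and Tm4sf1 from 4193 and 4244 to 2089.5 and 1968 (log2 difference -1.05 ± 0.12). Of 7 tested genes of polyamine synthesis 3 rose, led by Odc1, the first enzyme of the pathway, from 2762 and 2969.9 to 8179.7 and 9309.8. Without either 3 h array or the first 12 h array 1 was called higher. Of 46 lysosome and autophagy genes 7 rose and 7 fell (15.2% each), or 11 and 5 on arrays scaled to the same median. The shares over all tested genes were 9.52% higher and 12.4% lower. Without the first 3 h array 2 were called higher and 4 lower, and without the second 3 h or the first 12 h array 4 were called higher. Gusb, beta-glucuronidase, fell from 1182 and 1169 to 484 and 494 (log2 difference -1.25 ± 0.11), and Ulk1, the kinase that starts autophagy, from 487 and 445 to 199.8 and 207 (log2 difference -1.16 ± 0.17). Histone modifying and chromatin genes fell in 9 of 48 (18.8%) and rose in 5 (10.4%), or 5 and 8 on arrays scaled to the same median. The falls were 4 without the first 3 h array, and the rises 3 without either 0 h array, the second 3 h or the first 12 h array. Dnmt1, the maintenance DNA methyltransferase, fell from 1739.6 and 1906 to 1038 and 1075 (log2 difference -0.78 ± 0.12), and Sirt1, a deacetylase, rose from 542 and 922 to 1527 and 1905 (log2 difference 1.26 ± 0.22).

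Nuclear receptors and their coregulators rose in 3 of 26 and fell in 3, near the shares over all tested genes of 9.52% and 12.4%. No rise was called without the first 3 h or the second 12 h array and 1 without either of the other 2 compared arrays, and without the second 12 h array 1 fall was called. Among them Nr2f6, an orphan receptor, fell from 664 and 712 to 429.8 and 401 (log2 difference -0.72 ± 0.14). Of 14 clock genes 2 rose and 2 fell (14.3% each). With 1 of the 3 h or 12 h arrays left out 1 or none was called higher, and without the first 12 h array 1 was called lower. Bhlhe40 went from 1505 and 1549 to 552 and 647 (log2 difference -1.34 ± 0.13). In the MYC network Mxd4, a repressor of MYC targets, fell from 533 and 328 to 108 and 111 (log2 difference -1.86 ± 0.24). Efnb2, the ligand ephrin B2, fell from 2150.4 and 2221 to 537 and 708 (log2 difference -1.81 ± 0.15), and Unc50 from 806 and 777 to 223 and 232 (log2 difference -1.76 ± 0.12). Proteasome genes rose in 4 of 42 and fell in 1, vesicle trafficking genes in 4 and 6 of 55 and ubiquitin ligases and conjugating enzymes in 4 and 5 of 43, all near or below the shares over all tested genes. On arrays scaled to the same median the higher and lower counts were 6 and 0 for proteasome genes, 10 and 4 for vesicle trafficking and 10 and 2 for the ubiquitin enzymes. With 1 array left out they ranged from 2 to 4 and 0 to 1, from 1 to 6 and 3 to 7, and from 1 to 5 and 1 to 6. Among 13 metallothionein and zinc genes none was called by limma, where 1 was higher and 3 lower at an unadjusted p under 0.05.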
